A study of Mus musculus with 32 samples.

Results

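The nonsense-mediated decay factors Upf1, Upf2, Upf3a, Upf3b, Smg1, Smg5, Smg6, Smg8 and Smg9 were taken by gene symbol from an RNA sequencing table of mouse blood progenitors. Of these 9 genes, 8 had a row among the 27728 genes of the table and are described across all 9 groups, and Upf1 was not analysed here. The question is whether the transcripts of decay factors change when the splicing factor U2AF1 is lost or mutated, as a feedback response to mis-spliced RNA might. The table held 32 libraries, each from sorted progenitors that lacked lineage markers, carried cKit and lacked Sca1.

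Among 15 fetal liver libraries of stage E14.5, 3 were U2af1(flox/flox) with no Cre and are called the flox control. Of the others, 3 came from Vav1-Cre/U2af1(wt/flox) embryos (heterozygous deletion) and 3 from Vav1-Cre/U2af1(flox/flox) embryos (homozygous deletion). Another 4 came from Vav1-Cre/U2af1(wt/S34F) embryos (S34F) and 2 from embryos with Vav1-Cre alone. Vav1-Cre is active throughout the blood lineage, and S34F is an amino acid change in U2AF1 that recurs in myeloid neoplasms. The 17 adult bone marrow libraries all carried Mx1-Cre, rTA and the transgene tgU2AF1(WT), which encodes wild-type U2AF1 and is induced by doxycycline. Of these, 14 were U2af1(flox/S34F) and came from mice given pIpC, which induces Mx1-Cre, and doxycycline chow, 4 of them at 1250 ppm, 6 at 2500 ppm and 4 at 10000 ppm. The other 3 were U2af1(wt/wt) and untreated (untreated wild type). All flox and deletion libraries were labelled batch A and all S34F libraries batch B, and the Vav1-Cre group had 1 library in each. The labels do not say whether replicates were separate animals, so p-values measure the spread between these libraries, which may be technical.

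Nonsense-mediated decay removes mRNA in which translation stops early, for example after a splicing error shifts the reading frame. A ribosome that stops upstream of an exon junction complex leads to the assembly of Upf1 with Upf2 and Upf3, the kinase Smg1 phosphorylates Upf1, and phosphorylated Upf1 recruits Smg5 and Smg6, which start degradation. Several mRNAs of the pathway's own factors are known to be substrates of the pathway, which gives it a feedback loop in many cell lines. Blood progenitors depend on it, as Upf2 loss in mice depletes them.

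Promoter sequence is shown for the 3 members whose levels set the genotype and dose results apart. RefSeq windows on GRCm38.p6, from 250 bases before to 50 after each start, matched all 8 members by symbol. Smg8 lies at chr11:87086728-87087027 on the minus strand, Smg6 at chr11:74925604-74925903 on the plus strand and Smg5 at chr3:88336010-88336309 on the plus strand. Each is written 5′ to 3′ along its gene, and capitals mark either of the motifs TCGCGAG (the CGCGAGA element of housekeeping promoters) and CCGGAAG (the core bound by ETS factors), or their reverse complements CTCGCGA and CTTCCGG.
Smg8: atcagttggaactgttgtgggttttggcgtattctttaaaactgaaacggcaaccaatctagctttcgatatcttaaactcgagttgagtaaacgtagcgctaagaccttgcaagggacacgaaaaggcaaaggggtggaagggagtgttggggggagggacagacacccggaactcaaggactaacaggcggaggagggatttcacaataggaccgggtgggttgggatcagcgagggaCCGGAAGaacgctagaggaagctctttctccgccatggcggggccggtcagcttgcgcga
Smg6: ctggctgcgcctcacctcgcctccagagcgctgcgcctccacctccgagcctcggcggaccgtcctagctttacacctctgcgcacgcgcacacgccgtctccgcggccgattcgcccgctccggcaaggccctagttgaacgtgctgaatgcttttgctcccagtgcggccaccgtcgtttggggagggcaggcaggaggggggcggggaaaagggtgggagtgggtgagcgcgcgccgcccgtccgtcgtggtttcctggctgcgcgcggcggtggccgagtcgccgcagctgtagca
Smg5: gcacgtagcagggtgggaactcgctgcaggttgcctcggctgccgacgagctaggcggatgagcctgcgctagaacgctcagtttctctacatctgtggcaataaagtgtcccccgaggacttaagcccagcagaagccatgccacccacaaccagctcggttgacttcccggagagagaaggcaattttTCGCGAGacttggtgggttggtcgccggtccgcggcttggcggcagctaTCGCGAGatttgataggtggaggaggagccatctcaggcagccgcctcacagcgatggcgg
Smg5 held TCGCGAG at 2 places, Smg8 held 1 CCGGAAG, and Smg6 held neither. Across the family, TCGCGAG was found on either strand in Upf3a, Upf3b and Smg5, 3 of the 8 members, against 1.9% of 32851 promoters of the same length. CCGGAAG was found in Smg8 alone among the members, against 8.9% of those promoters. Other promoter motifs were searched too, so neither result comes from a single planned look. The YY1 core was found in Upf3b, Smg5 and Smg8, 3 of 8 members, against 4.1% of promoters. The NRF1 motif was found in Smg9 alone, against 1.0%, and the GC box in 6 members, against 35.7%. Another box motif was found in Upf3a, Upf3b, Smg1 and Smg8, against 37.4%. All these matches describe the letters and say nothing of binding.

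All 8 members were expressed in every library, with raw counts from 1102 to 26892. Libraries held 26588099 to 71251200 counts. Levels are given as counts per 1000000 (CPM), scaled for library size by the trimmed mean of M values, and genes are compared with each other only as FPKM, which also divides by the gene's exon length in kilobases. By mean FPKM over the 32 libraries, the order was Smg5 (28), Smg8 (21.6), Upf2 (16.5), Smg6 (15.6), Smg9 (14.6), Smg1 (14.2), Upf3b (10.8) and Upf3a (6.76). The spread over all libraries was narrow: the highest library exceeded the lowest 1.4-fold for Smg5, 1.45-fold for Upf3a, 1.55-fold for Upf2, 1.86-fold for Smg9, 2.02-fold for Upf3b, 2.03-fold for Smg6, 2.12-fold for Smg1 and 2.2-fold for Smg8. Smg8 thus had the widest range, as the plot of CPM by group shows.

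**Figure D1:**
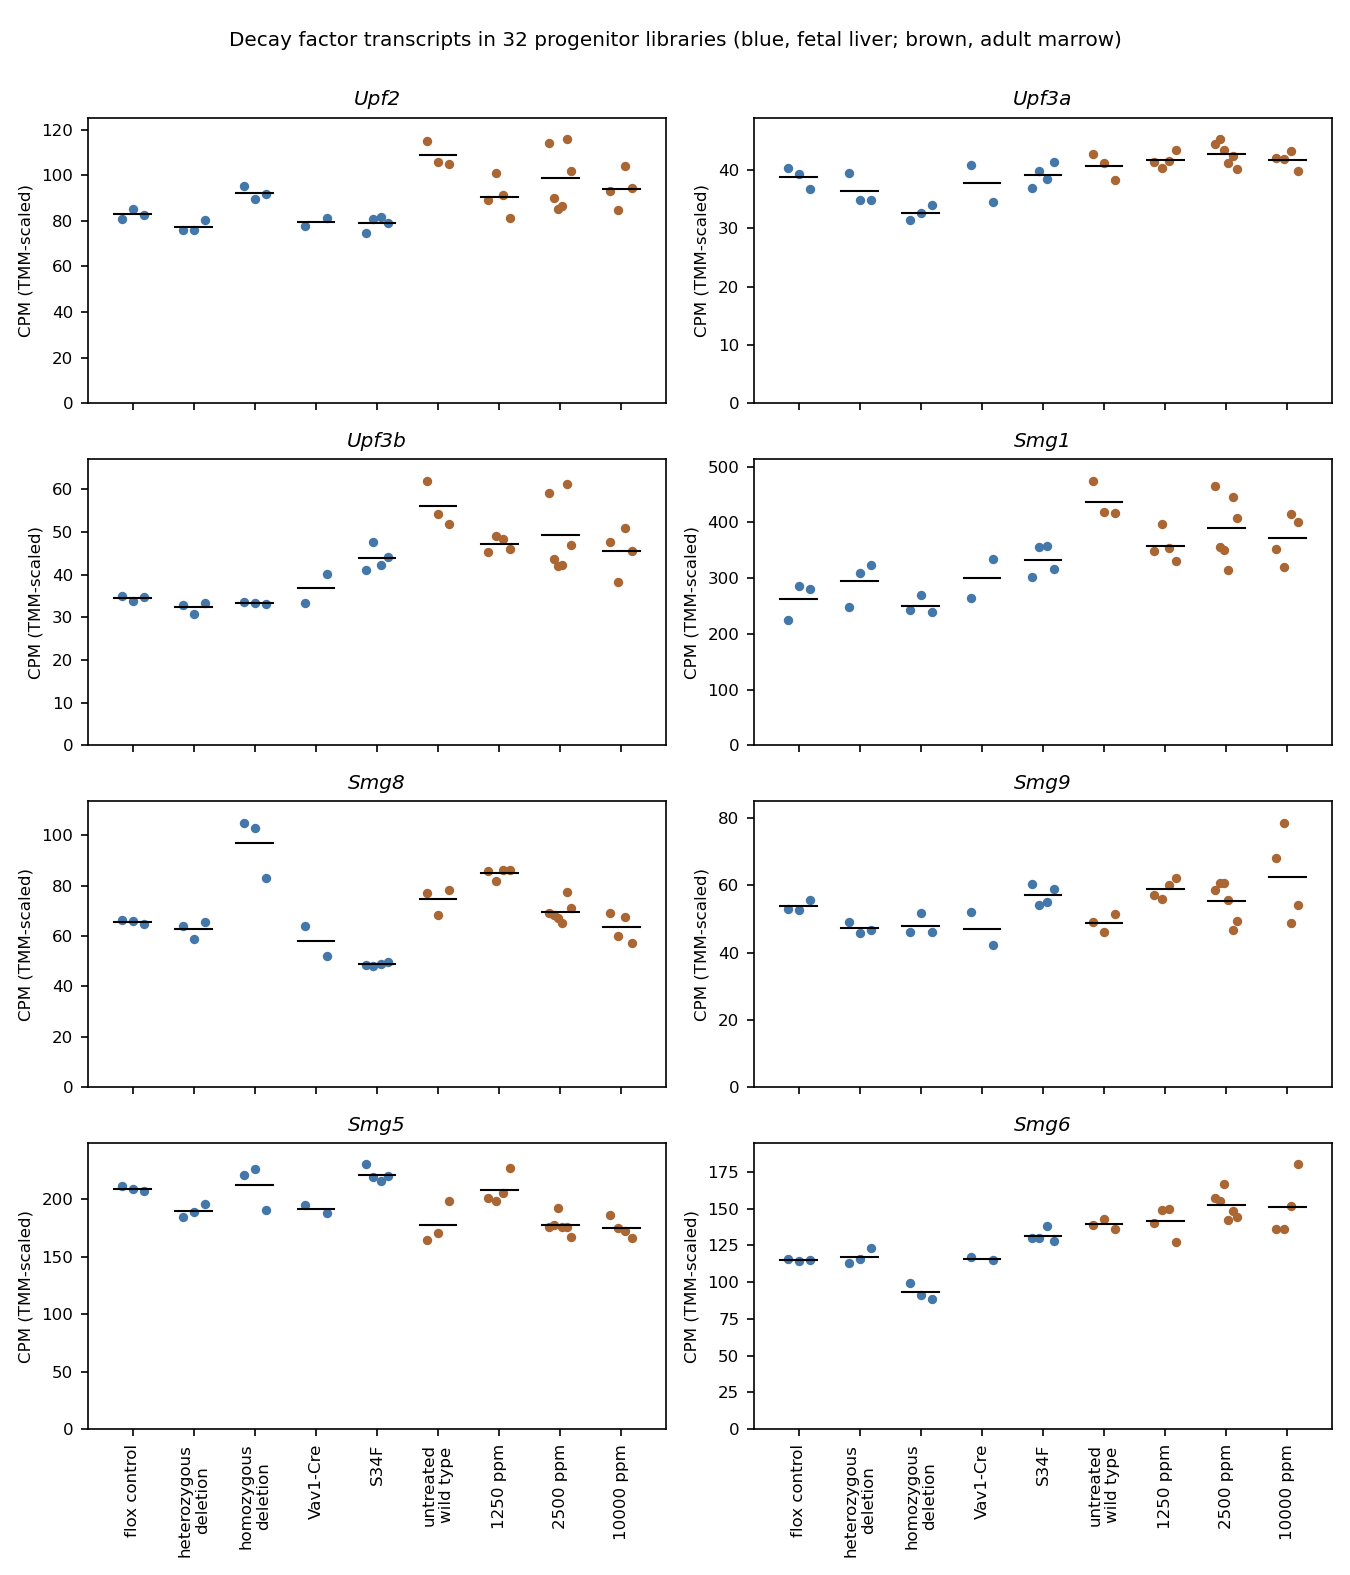
TMM-scaled CPM (linear axes from 0) of the 8 decay factors in each of the 32 libraries, as points, with the mean of each of the 9 groups as a bar. Smg8 ranged from 47.9 CPM in an S34F library to 105 CPM in a homozygous deletion library.

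Progenitor identity and other cells were checked by markers. Kit, Ptprc, Cd34, Myb, Gata2 and Vav1 were between 45.5 and 1370 CPM in every library, while the T cell gene Cd3e was at 0 in 11 libraries and never above 2.26 CPM, and Ly6a, which encodes Sca1, was not analysed here. U2af1 was not analysed here either, so the counts give no check of the genotypes. Hepatocyte markers differed between the fetal groups: the summed level of the 10 with a row, of 12 listed, was 102 to 635 CPM in the flox control, 50 to 122 CPM in the heterozygous deletion and 11.3 to 31 CPM in the homozygous deletion. Of these, Ahsg alone was at 0 in any fetal library. B cell markers (3 of 6 with a row) summed to 56 to 112 CPM in the flox control and 23.6 to 26.3 CPM in the homozygous deletion, and macrophage markers (7 of 7) to 91 to 101 CPM and 39.3 to 62 CPM. Erythroid markers (5 of 8 with a row) summed to 557 to 836 CPM in the flox control and 375 to 457 CPM in the homozygous deletion. Neutrophil granule genes (4 of 6 with a row) overlapped in sum, at 14700 to 21500 CPM and 15400 to 17400 CPM. Their mean log2 CPM did not, at 9.32 to 9.93 in the flox control and 10.17 to 10.59 in the homozygous deletion. The part of B cells, macrophages, erythroid cells and neutrophils in the fetal results was not tested, and the hepatocyte score entered a fit as a covariate. Alb, Ttr, Fga, Fgb and Fgg, which hepatocytes make, were at 0 in all 17 adult libraries. The rest of the list was not: Trf ran from 13.8 to 41.8 CPM there, Apob from 0.0202 to 4.71 and Apoa2 from 0.199 to 0.737. Apoa1 and Ahsg reached at most 0.171 and 0.109 CPM. In bulk libraries, fewer cells of a type and less RNA per cell cannot be told apart.

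In the homozygous deletion, decay factors differed from the flox control in both directions. The flox control carries no Cre, so Vav1-Cre and the deletion differ together in this comparison and cannot be told apart. Among the members, Smg8 rose while Smg6, Upf3a and Smg9 fell, and the changes were small, at most 1.46-fold. That is 4 of 8 members at an adjusted p under 0.05 in edgeR's quasi-likelihood test against the flox control, beside 40.9% of all 12678 genes tested. The members' median log2 fold change was -0.08 and that of all genes -0.02, and a share of members near the background is not a result about the family.

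Smg8 and Smg9 form a complex with Smg1 that restrains the kinase. Smg8 (ENSMUSG00000020495, chromosome 11, 87077732 to 87086774, minus strand), whose promoter is printed above, had 66.5, 66.1 and 64.6 CPM in the flox control and 105, 103 and 82.9 CPM in the homozygous deletion. All 3 homozygous libraries lay above every other fetal library. The log2 fold change was 0.54 ± 0.074 (SE; edgeR adjusted p = 0.000219), and 89.6% of genes tested had a lower value. It passed in each fit that left out a library, with a log2 fold change of 0.51 to 0.62. With the hepatocyte marker score of each library as a covariate it was 0.71 (edgeR adjusted p = 0.0144), although that score did not overlap between these groups. Smg9 (ENSMUSG00000002210, chromosome 7, 24399619 to 24422778, plus strand) had 52.9, 52.6 and 55.7 CPM in the flox control and 46.2, 51.8 and 46 CPM in the homozygous deletion. It fell by 0.18 ± 0.06 on the log2 scale (SE; edgeR adjusted p = 0.0336), a call lost without flox control replicates 4 and 5 (0.08 and 0.131) and without homozygous deletion replicates 2 and 4 (0.144 and 0.07). After correction for GC content the log2 fold change was -0.05 (edgeR adjusted p = 0.534). GC content was taken from each gene's longest annotated transcript. Smg9 has the highest of the members, at 60.3%, against a median of 49.9% over protein-coding genes of the table.

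The kinase Smg1 itself (ENSMUSG00000030655, chromosome 7, 118131308 to 118243670, minus strand) had 224, 285 and 281 CPM in the flox control and 242, 270 and 239 CPM in the homozygous deletion. Those ranges overlapped, and the log2 fold change of -0.09 ± 0.12 (SE) did not pass (edgeR adjusted p = 0.58). Smg1 has the most introns of the members, 62 in its longest coding transcript, and it had the largest SE of the 8 members in this comparison.

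Of the effectors, Smg6 is the endonuclease that cuts the target mRNA near the stop codon, and Smg5 is an adaptor that leads to deadenylation and decapping. Smg6 (ENSMUSG00000038290, chromosome 11, 74925823 to 75164448, plus strand) had 116, 114 and 115 CPM in the flox control and 99.4, 91.4 and 88.8 CPM in the homozygous deletion. The groups were apart by more than their spread, at a log2 fold change of -0.32 ± 0.058 (SE; edgeR adjusted p = 0.00139). The size was the same with the hepatocyte score as a covariate, -0.32, but the edgeR adjusted p was then 0.134. The gene overlaps 6 annotated genes on the opposite strand, Srr among them, and whether counting used strand is not given in the sources used here. Smg5 (ENSMUSG00000001415, chromosome 3, 88336260 to 88362338, plus strand) had 211, 209 and 207 CPM in the flox control and 221, 226 and 190 CPM in the homozygous deletion, a log2 fold change of 0.01 ± 0.059 (SE; edgeR adjusted p = 0.956).

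Upf2 bridges Upf1 to Upf3, and Upf3b and its paralog Upf3a bind the exon junction complex. Upf3a (ENSMUSG00000038398, chromosome 8, 13785615 to 13799193, plus strand) had 40.4, 39.3 and 36.8 CPM in the flox control and 31.4, 32.6 and 34 CPM in the homozygous deletion, with no overlap. Its log2 fold change was -0.26 ± 0.076 (SE; edgeR adjusted p = 0.0168), and with the hepatocyte score as a covariate it was -0.34 (edgeR adjusted p = 0.228). Without flox control replicate 4, the edgeR adjusted p was 0.0605. Without homozygous deletion replicate 2 it was 0.0707, and without replicate 3 it was 0.0666. Upf3b (ENSMUSG00000036572, chromosome X, 37091678 to 37110322, minus strand) had 34.9, 33.8 and 34.7 CPM in the flox control and 33.6, 33.3 and 33.2 CPM in the homozygous deletion, and did not pass at -0.06 ± 0.062 (SE; edgeR adjusted p = 0.464). Upf2 (ENSMUSG00000043241, chromosome 2, 5951469 to 6056703, plus strand) had 80.8, 85.3 and 82.5 CPM in the flox control and 95.3, 89.6 and 91.7 CPM in the homozygous deletion. These values did not overlap, and its log2 fold change of 0.14 ± 0.059 (SE) missed the threshold (edgeR adjusted p = 0.0832). It passed in DESeq2, at 0.15 (adjusted p = 0.0441), and in edgeR's test without homozygous deletion replicate 3, at 0.19 (adjusted p = 0.0412).

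**Figure D2:**
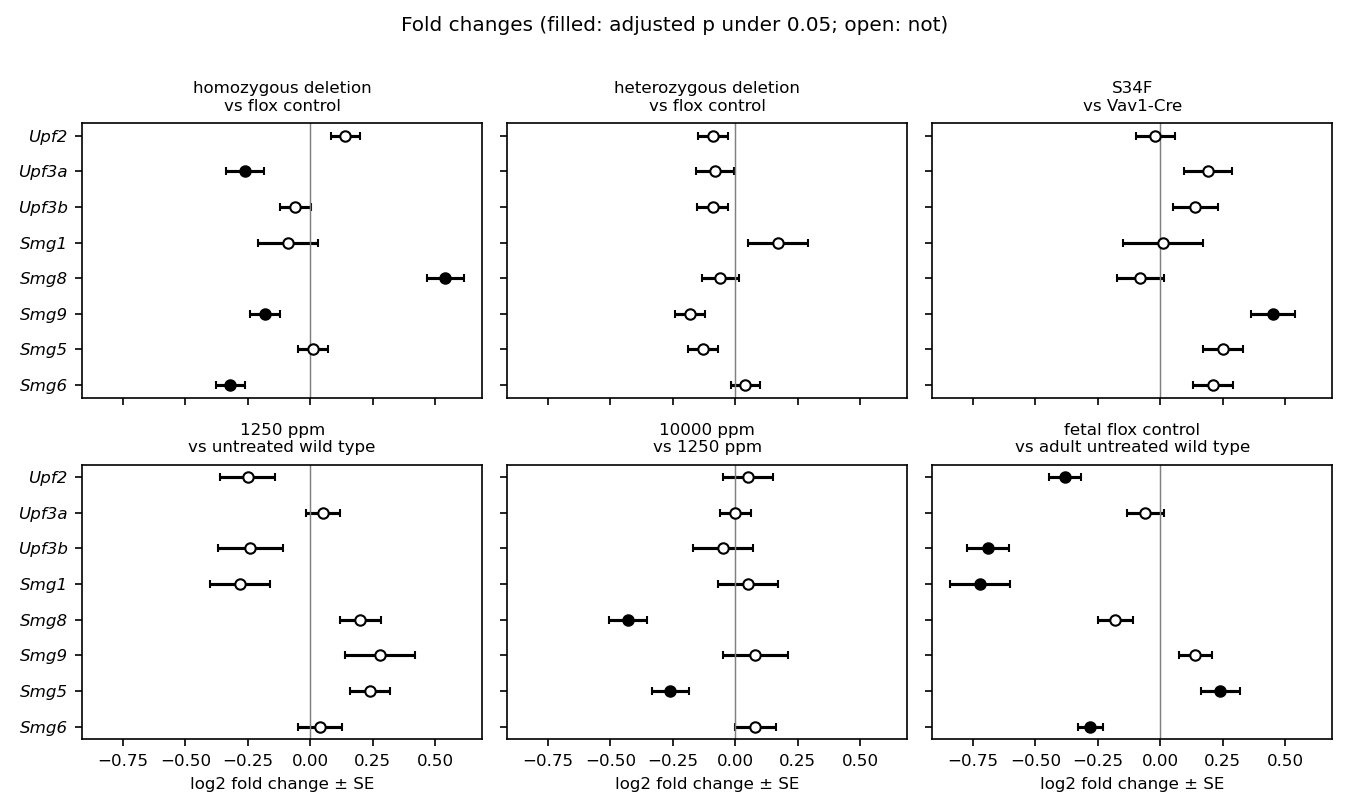
Log2 fold change ± SE (edgeR) of the 8 decay factors in 6 of the comparisons, filled where the adjusted p was under 0.05. In the homozygous deletion Smg8 lies to the right at 0.54 and Smg6, Upf3a and Smg9 to the left.

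The heterozygous deletion gave no call among the members. In the heterozygous deletion against the flox control, 0 of 8 passed in edgeR's test, beside 0.0316% of all genes. In DESeq2 0 of 8 passed, beside 119 of 12678 genes. Smg5 and Smg9 had an unadjusted p under 0.05 in edgeR's test, 2 of 8 members against 8.69% of all genes. Smg8 was at 63.9, 58.8 and 65.6 CPM, overlapping the control, with a log2 fold change of -0.06 ± 0.074 (SE; edgeR adjusted p = 0.871). The members' log2 fold changes lay between -0.18 and 0.17.

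The 2 deletion groups share Vav1-Cre and differ by the other allele. In the homozygous against the heterozygous deletion, 3 of 8 members passed, beside 42.2% of all genes. Smg8 was higher at 0.6 ± 0.074 (SE; edgeR adjusted p = 0.000108), and Smg6 was lower at -0.36 ± 0.058 (SE; edgeR adjusted p = 0.000603). Upf2, at 76.2, 76 and 80.3 CPM in the heterozygous deletion, was higher in the homozygous deletion by 0.23 ± 0.059 (SE; edgeR adjusted p = 0.00957), and all 3 genes passed in every fit that left out a library. This comparison uses the same homozygous libraries as the one with the flox control, so it is no independent repeat. After correction for GC content, Smg5 and Smg9 were also called, both higher. Smg5 and Upf3a were called too when homozygous deletion replicate 4 was left out, for 5 members in all in either case. Over all genes, 5471 of 12673 were called after the correction and 4922 of 13071 without that library. In all, Smg5 passed in 3 of 9 alternative settings, and DESeq2 called 4 members, beside 5813 of 12678 genes. Smg1 passed, lower, in 1 of the 6 fits that left out a library (edgeR adjusted p = 0.0161).

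Other genes of the pathway were read from 3 lists. Of 15 other decay and exon junction factors tested, 5 rose and 1 fell when both alleles were lost, where 18.5% of all genes rose and 22.4% fell. The count called in either direction was near the share of all genes called, 40.9%. The median log2 fold change was 0.13 against -0.02 for all genes. The termination factor Etf1 rose at 0.35, the junction core proteins Rbm8a and Magohb at 0.36 and 0.46, the ATPase Ruvbl1 at 0.19 and the cap-binding protein Ncbp2 at 0.21. The helicase Mov10 fell at -1.14 ± 0.06 (SE; edgeR adjusted p = 5.06e-07). Without flox control replicate 4, 3 of the 15 passed, beside 4055 of 13077 genes, as did 3 without replicate 5, beside 3989 of 13096.

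Of 15 decapping and decay effectors, 3 rose and 3 fell, with a median log2 fold change of 0.01. Of all genes tested, 40.9% were called, 18.5% higher and 22.4% lower, so the count of effectors is near the background. Cnot7, a deadenylase of the CCR4-NOT complex, was at 0.26, the decapping enzyme Dcp2 at 0.28 and its enhancer Edc3 at 0.26. The deadenylase Parn was at -0.49, the exonuclease Xrn1 at -0.31 and the decapping activator Dcp1b at -0.31. With the hepatocyte score as a covariate, 1 of the 15 passed, beside 1347 of 12678 genes. Of 6 reported substrates with a row, of 11 listed, 3 rose and 0 fell at a median of 0.23: the stress gene Gadd45b at 0.95 ± 0.19, its relative Gadd45a at 0.74 ± 0.17 and the transcription factor Atf4 at 0.42 ± 0.089 (log2 fold change ± SE). Tbl2 (-0.05), Ddit3 (0.03) and Atf3 (-1.81 ± 1.5, SE) did not pass. None of Gadd45b, Gadd45a and Atf4 was called with the hepatocyte score as a covariate, where calls fell over all genes as given above.

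**Figure D3:**
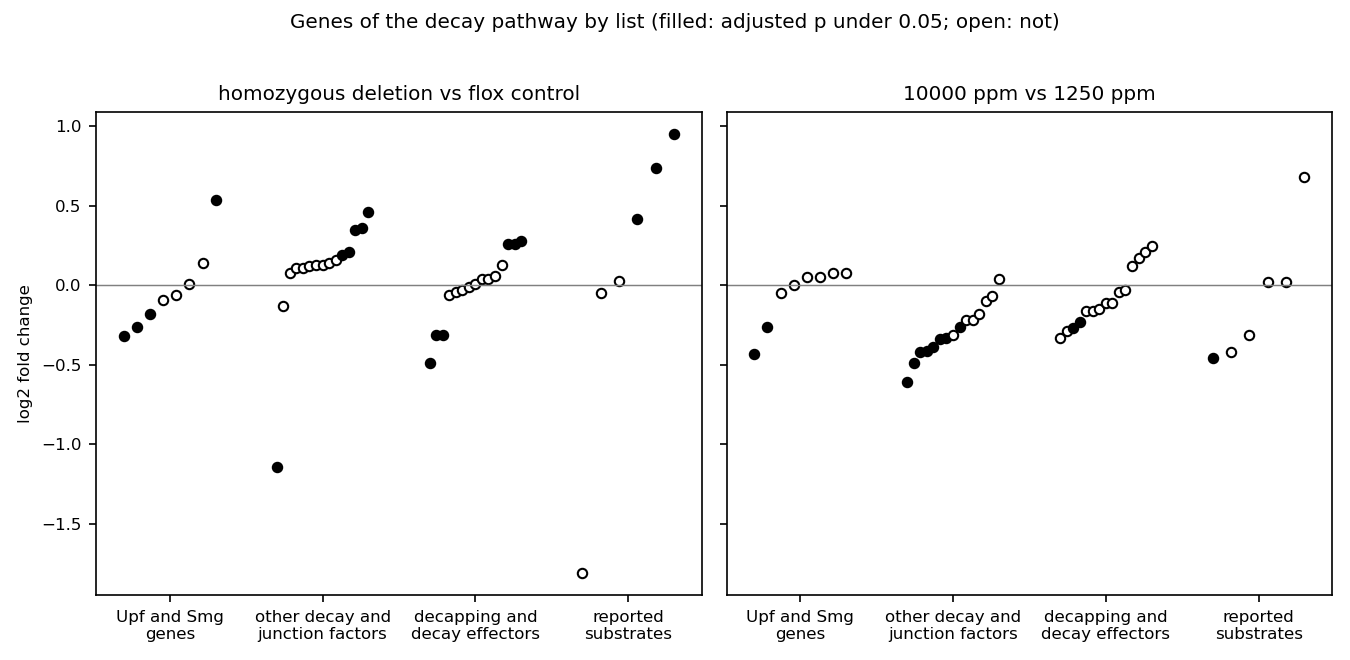
Log2 fold change of every tested gene of the decay pathway, 1 point per gene sorted within its list, with both alleles deleted against the flox control (left) and at 10000 against 1250 ppm (right), filled where the edgeR adjusted p was under 0.05. Of the other decay and junction factors, 5 rose and 1 fell on the left, and 8 fell on the right.

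Smg8 is short in introns, with 3 in its longest coding transcript, the fewest of the members. Across protein-coding genes tested in the same comparison, the share that fell was 9.7% of 154 genes without introns, 18.8% of 1695 genes with 1 to 3, 22% of 4120 with 4 to 9, 28.4% of 3352 with 10 to 19 and 35.5% of 1576 with 20 or more. In the same order of classes, the share that rose was 15.6%, 23.9% (the class of Smg8), 24.5%, 19.4% and 12.2%. The 3 members that fell had 8 introns (Upf3a), 13 (Smg9) and 18 (Smg6), while Upf3b, with 9, Upf2 and Smg5, with 21 each, and Smg1, with 62, were not called. The intron number therefore did not order the 8 members by their change.

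**Figure D4:**
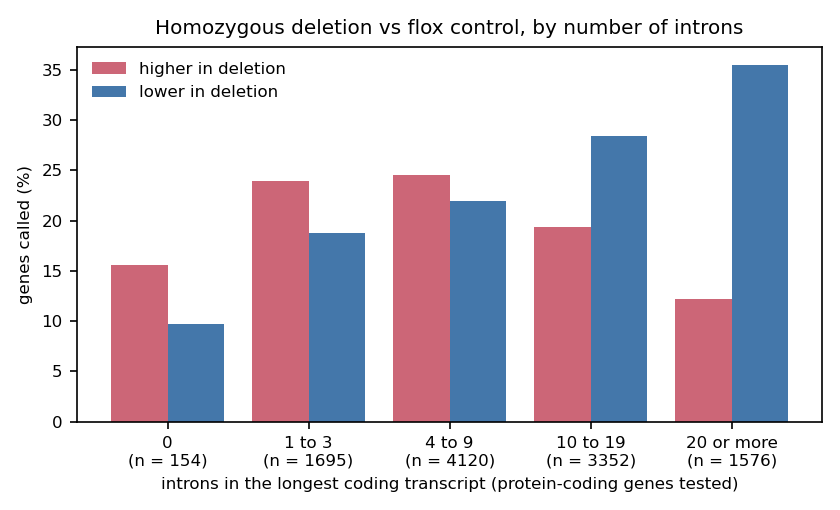
Share of tested protein-coding genes (percent, linear axis from 0) called higher or lower with both alleles deleted, against the flox control, by the number of introns in the longest coding transcript. The share called lower was 9.7% without introns and 35.5% with 20 or more.

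The S34F allele was compared with Vav1-Cre alone in a fit of all fetal libraries with batch as a term, where only 1 control library shares the batch of the S34F libraries. Smg9 was the 1 member called, higher with S34F, beside 0.358% of all 13973 genes. Smg9 had 60.3, 54, 54.9 and 58.9 CPM with S34F and 42.3 CPM in the Vav1-Cre library of the same batch, and 51.9 CPM in that of batch A. Its log2 fold change was 0.45 ± 0.089 (SE; edgeR adjusted p = 0.037), and after correction for GC content it was 0.24 (edgeR adjusted p = 0.316). Without S34F replicate 1 the edgeR adjusted p was 0.0778, without replicate 2 it was 0.0559, without replicate 3 it was 0.0934 and without replicate 4 it was 0.0887. Smg5 (0.25 ± 0.081) and Smg6 (0.21 ± 0.08, log2 fold change ± SE) did not pass, at edgeR adjusted p = 0.227 and 0.299.

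Smg8 was at its lowest in the S34F group, at 48.5, 47.9, 48.9 and 49.8 CPM, but the Vav1-Cre library of the same batch was at 52.1 CPM and that of batch A at 64 CPM. The log2 fold change was -0.08 ± 0.094 (SE; edgeR adjusted p = 0.815), so the low level cannot be told apart from the batch.

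In adult progenitors that depend on the transgene, Smg8 and Smg5 differed between the highest and the lowest dose. Both were lower at 10000 than at 1250 ppm, 2 of 8 members, beside 18.1% of all 13338 genes. Genotype and pIpC are the same in both groups, which share no library with the fetal comparisons. Smg8 had 69, 60.1, 67.6 and 57.1 CPM at 10000 ppm and 85.9, 82, 86.2 and 86 CPM at 1250 ppm, without overlap. The log2 fold change was -0.43 ± 0.077 (SE; edgeR adjusted p = 0.0042), and it passed without each library in turn, from -0.47 to -0.35. Smg5 had 186, 175, 172 and 166 CPM at 10000 ppm and 201, 198, 205 and 227 CPM at 1250 ppm, also without overlap. Its log2 fold change was -0.26 ± 0.074 (SE; edgeR adjusted p = 0.0244). Without 10000 ppm replicates 2, 3 and 4 in turn, the edgeR adjusted p of Smg5 was 0.0503, 0.097 and 0.0687, and without 1250 ppm replicates 4 and 5 it was 0.0841 and 0.0909. The other 6 members were between -0.05 and 0.08 and did not pass.

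The intermediate dose placed Smg8 near the high dose. At 2500 ppm Smg8 ran from 65 to 77.6 CPM with a median of 68.7, below all 4 libraries at 1250 ppm. As a slope over the 14 dosed libraries, Smg8 fell by 0.12 ± 0.028 (SE) on the log2 scale per doubling of the dose (edgeR adjusted p = 0.0252), 1 of 8 members beside 10.7% of all genes. The slope passed in 9 of the 14 fits that left out a library. Without 10000 ppm replicate 2 the edgeR adjusted p was 0.078, and without 1250 ppm replicates 1, 3, 4 and 5 in turn it was 0.0669, 0.0566, 0.062 and 0.0696. Smg5 did not pass, at -0.06 ± 0.026 (SE; edgeR adjusted p = 0.14).

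Marker levels of other cells overlapped between the dose groups. Erythroid markers (5 of 8 with a row) summed to 73.9 to 760 CPM at 10000 ppm and 32.3 to 98.5 CPM at 1250 ppm. The neutrophil gene Ly6g, which the sort should remove, ran from 0.323 to 93.5 CPM over the adult libraries. Neutrophil granule genes (4 of 6 with a row) summed to 16800 to 42200 CPM and 30400 to 37600 CPM, in the same order. Their part in the Smg8 and Smg5 results was not tested.

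Against the untreated wild type, edgeR's test in the fit of all adult libraries called no member at any of the 3 doses. At 10000 ppm 0 of 8 passed in edgeR's test, beside 1.24% of all genes, and 0 in DESeq2, beside 1055 of 13338 genes. Upf3b, Smg8 and Smg9, 3 members, had an unadjusted p under 0.05 in edgeR's test, beside 22.2% of all genes. At 2500 ppm 0 of 8 passed in edgeR's test, beside 0.427% of all genes, and 0 in DESeq2, beside 567 of 13338 genes. At that dose 0 had an unadjusted p under 0.05 in edgeR's test, beside 15.1%. At 1250 ppm 0 of 8 passed in edgeR's test, beside 11.6% of all genes, and 4, Upf2, Smg1, Smg5 and Smg8, had an unadjusted p under 0.05, beside 30.4%. DESeq2 called 1, Smg5, beside 2519 of 13338 genes. Its log2 fold change was 0.24 in DESeq2 (adjusted p = 0.0305), where edgeR gave 0.24 ± 0.08 (SE; adjusted p = 0.0555).

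The untreated wild type had 77.2, 68.5 and 78.2 CPM of Smg8, and 164, 170 and 198 CPM of Smg5. The Smg8 values overlapped those at 10000 ppm. Smg8 at 1250 ppm lay above all 3 of those libraries, with a log2 fold change of 0.2 ± 0.083 (SE; edgeR adjusted p = 0.114), and at 10000 ppm it was -0.23 ± 0.083 (SE; edgeR adjusted p = 0.129). Upf2 had 115, 106 and 105 CPM in the untreated wild type and 81.2 to 101 CPM at 1250 ppm, which did not overlap, at -0.25 ± 0.11 (SE; edgeR adjusted p = 0.141). The 3 comparisons share the untreated wild type libraries, which differ from the dosed groups in genotype, pIpC and doxycycline together. B cell markers summed to 18.5 to 25.6 CPM in the untreated wild type and at least 31.6 CPM in every dosed library. Macrophage markers summed to 353 to 456 CPM and at most 349 CPM, in the same order. The macrophage mean log2 CPM went the other way, at 0.27 to 1.23 and at least 1.84. The part of these cells was not tested. Fitted with the compared groups only, Upf2, Smg1 and Smg9 passed at 1250 ppm, for 3 members, beside 3205 of 12170 genes. Without 10000 ppm replicate 3, Smg9 passed at 10000 ppm, with a log2 fold change of 0.49 (edgeR adjusted p = 0.0379), beside 825 of 13292 genes. Without untreated wild type replicate 3, Smg5 passed at 1250 ppm, at 0.31 (edgeR adjusted p = 0.0291), beside 1257 of 13846 genes.

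The other pathway lists were read at the same doses. At 10000 against 1250 ppm, 0 of the 15 other decay and junction factors rose and 8 fell, with a median log2 fold change of -0.31 against 0.02 for all genes, of which 7.48% rose and 10.6% fell. The junction helicase Eif4a3 was at -0.41 ± 0.073, the ATPase Ruvbl2 at -0.61 ± 0.11, Ncbp2 at -0.42 ± 0.082, Etf1 at -0.39 ± 0.084, the junction protein Rnps1 at -0.34 ± 0.074 and Rbm8a at -0.26 ± 0.063 (log2 fold change ± SE). Of the 15 effectors 0 rose and 2 fell, the decapping scaffold Edc4 at -0.27 and the exosome nuclease Exosc10 at -0.23. Of the 6 substrates only Tbl2 was called, lower at -0.46 ± 0.089 (SE; edgeR adjusted p = 0.00529). The counts for effectors and substrates are near the shares of all genes. At 1250 ppm against the untreated wild type, Ruvbl2, Eif4a3, Ncbp2 and Ruvbl1 were higher, 4 of 15, and none of the 15 was lower, where 6.89% of all genes were higher and 4.67% lower. Both comparisons contain the 1250 ppm libraries.

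The fetal deletion and the adult dose comparison can be set side by side because they have no library in common. Smg8 was higher in the homozygous deletion and lower at 10000 than at 1250 ppm, as were 554 of the 11857 genes tested in both comparisons. Those 554 were 4.67% of the genes tested, 24.1% of the 2296 higher in the deletion and 39.4% of the 1407 lower at 10000 ppm. Another 92 genes were higher in both, 317 were lower in the deletion and higher at 10000 ppm, and 104 were lower in both. Smg8 was the only one of the 8 members called in both.

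**Figure D5:**
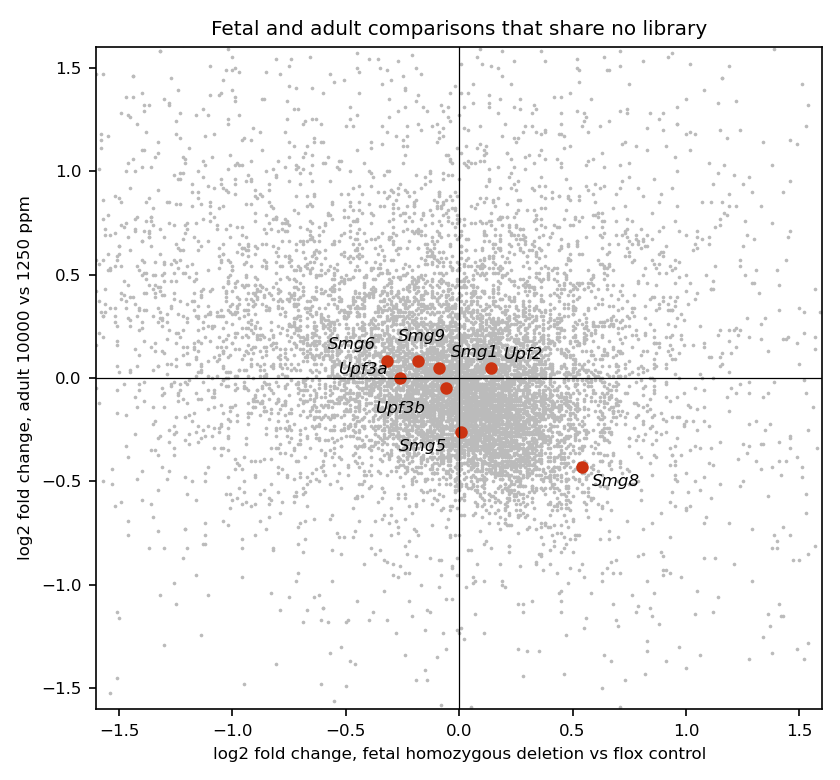
Log2 fold change of 11857 genes in the fetal homozygous deletion against the flox control (horizontal) and in adult progenitors at 10000 against 1250 ppm (vertical), with the 8 decay factors in red; 995 genes lie outside the plotted range of -1.6 to 1.6. Smg8 lies at 0.54 and -0.43, and the other members lie closer to the origin.

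The control groups of both tissues were compared for the members' levels in fetal and adult progenitors. In the fetal flox control against the adult untreated wild type, 5 of 8 passed, beside 59.1% of all 12256 genes, a share near the background. Smg1 was lower in the fetal libraries at -0.72 ± 0.12, Upf3b at -0.69 ± 0.083, Upf2 at -0.38 ± 0.064 and Smg6 at -0.28 ± 0.051 (log2 fold change ± SE). Smg1 had 224 to 285 CPM in the flox control and 417 to 475 CPM in the untreated wild type, and Upf3b had 33.8 to 34.9 and 51.8 to 62 CPM. Smg5 was higher in fetal libraries at 0.24 ± 0.079 (SE; edgeR adjusted p = 0.0345), and at 0.07 after correction for GC content (edgeR adjusted p = 0.419). The Smg5 call was also lost without each flox control library in turn (edgeR adjusted p from 0.061 to 0.0925) and without untreated wild type replicates 1 and 2 (0.103 and 0.126). After the same correction Upf2 was at -0.17 (edgeR adjusted p = 0.0395). Tissue, age, genotype and transgene differ together here and cannot be told apart. Of the 15 other decay and junction factors, 10 were higher in the fetal libraries and 1 was lower, Nbas, at -0.78, where 30.1% of all genes were higher and 29.1% lower.

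By mean CPM, the groups ranked differently for each member. Smg8 ran from S34F (48.8) through Vav1-Cre (58), heterozygous deletion (62.8), 10000 ppm (63.4), flox control (65.7), 2500 ppm (69.7), untreated wild type (74.6) and 1250 ppm (85) to homozygous deletion (97.1). In that order the ranges of neighbours overlapped except between S34F and Vav1-Cre and between the untreated wild type and 1250 ppm. Smg6 was lowest in the homozygous deletion (93.2 ± 5.54 CPM, SD, n = 3) and highest at 2500 ppm (152 ± 9.37 CPM, SD, n = 6), and Upf3a was likewise lowest in the homozygous deletion (32.6 ± 1.32 CPM, SD, n = 3) and highest at 2500 ppm (42.8 ± 1.95 CPM, SD, n = 6). Upf2, Upf3b and Smg1 were each highest in the untreated wild type, at 109 ± 5.65, 56 ± 5.36 and 437 ± 33.1 CPM (SD, n = 3). Smg5 was lowest at 10000 ppm (175 ± 8.38 CPM, SD, n = 4) and highest with S34F (221 ± 5.9 CPM, SD, n = 4). Smg9 was highest at 10000 ppm (62.3 ± 13.5 CPM, SD, n = 4), the group in which its 4 libraries spread most, from 48.8 to 78.6 CPM.

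Across the 32 libraries, after the mean of each stratum (fetal batch A, fetal batch B, adult) was subtracted from log2 CPM, Pearson's r is given as a description, since libraries of a group share treatment and the libraries differ in depth. Upf2 and Upf3b had r = 0.8, Upf3b and Smg1 had 0.66, and Upf2 and Smg1 had 0.61. Smg8 and Smg6 ran opposite to each other at r = -0.66, and Smg8 and Smg5 had r = 0.57. Smg8 and Smg9, whose proteins bind each other, had r = -0.17. Among 9689 genes with a mean of at least 50 counts, the one most like each member was Stag2 for Upf2 (0.93), Renbp for Upf3a (0.81), Smc6 for Upf3b (0.89), Arid2 for Smg1 (0.92), Get4 for Smg5 (0.84), Gpatch2 for Smg6 (0.9), Trim27 for Smg8 (0.94) and Pdlim7 for Smg9 (0.87).

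In the GENCODE M21 annotation, Smg1, Smg5 and Smg6 each have 1 transcript of the type nonsense-mediated decay, 3 of 8 members against 24.5% of 15424 protein-coding genes of the table. Of these 3, Smg6 fell and Smg1 and Smg5 were not called with both alleles deleted. The counts are per gene, so transcripts with and without an early stop were not separated, and splicing was not analysed here.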

How the data were processed

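RNA was measured in 32 libraries of sorted mouse progenitors. The authors deposited raw counts for each Ensembl gene, and per the series' design text the authors mapped reads with HISAT2 2.1.0 to GRCm38. The counting tool, annotation release and use of strand are not given in the sources used here. Symbols, coordinates, exon lengths and transcript types came from GENCODE M21, promoters from RefSeq (GRCm38.p6).

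Members, pathway lists, markers and comparisons were chosen with earlier results of these data known. All members are named, and of each pathway list the genes past the threshold, at most 6 with the smallest adjusted p. The gene most like each member was chosen by correlation. Motifs and intron classes were chosen after the members' values were seen.

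Genes were kept with filterByExpr, scaled by TMM and tested by the quasi-likelihood method of edgeR 4.0.16 (R 4.3.3), with Benjamini-Hochberg adjustment over all genes tested and a threshold of 0.05. Fits held the 9 flox and deletion libraries, all 15 fetal libraries with batch as a term, the 17 adult libraries, the 14 dosed libraries, or the 6 control libraries. SE is the log2 fold change divided by the root of the F statistic. A prior count of 2 was added for log2 CPM. The test was checked on simulated counts. Alternatives were DESeq2 1.42.0, RLE factors, leaving out genes over 1% of a library, no filter, a mean of at least 50 counts, the compared groups only, a replicate block, a hepatocyte score as covariate, other control groups, the rank of the dose, each library left out and, added after seeing the data, a lowess correction on GC content (span 0.3). Totals per library ran from 26588099 to 71251200 counts. For 2500 ppm and the untreated wild type, all 3 same-numbered pairs of libraries deviated together (r from 0.17 to 0.29), by the data and not the labels. For 10000 ppm and the untreated wild type r was 0.03 to 0.28 over 3 pairs. For 10000 and 2500 ppm it was -0.37 to 0.69 over 4 pairs.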

Additional observations from a re-analysis of the deposited data

Results flagged for a closer look

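Each of the 8 members was looked at in the 4 groups with 4 or more libraries, 32 sets of values, and 1 set held a library that stood apart, and chance gives about 1 in 20. Smg8 at 1250 ppm was at 82 CPM in replicate 3 and between 85.9 and 86.2 CPM in the other 3 libraries. The gap is small in CPM, and the other 3 libraries lie close together. Without that library, Smg8 was still called at 10000 against 1250 ppm.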

How the results depend on the processing

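For homozygous deletion against flox control, 2 members passed with the replicate block, beside 4069 of 12678 genes. With the hepatocyte score 1 passed, Smg8, beside 1347 of 12678 genes. With neither, 5185 genes were called, so the calls fell over all genes and not only among the members. Of the other decay and junction factors 2 passed with the block, and with the hepatocyte score 1 effector and 0 substrates. In the homozygous against the heterozygous deletion, 5 members passed after GC correction, beside 5471 of 12673 genes. For S34F, 0 passed with the block, beside 4 of 13973 genes, and 0 after GC correction, beside 30 of 13966. At 1250 ppm against the untreated wild type, 1 passed in DESeq2, beside 2519 of 13338 genes. With a mean of at least 50 counts 1 passed, beside 1630 of 9610 genes. With the compared groups only 3 passed, beside 3205 of 12170 genes. At 10000 against 1250 ppm, 1 passed without a filter, 1 with the compared groups only and 1 with the block, Smg8 each time. Over all genes, these settings called 1402 of 25647, 1073 of 12177 and 1178 of 13338. For the dose trend, 0 passed with the block, beside 45 of 12849 genes.

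Leaving out 1 library gave 2 to 4 members for the homozygous deletion against the flox control, beside 3989 of 13096 to 5595 of 13102 genes. It also gave 3 to 6 other factors, 4 to 6 effectors and 3 substrates in each fit. It gave 3 to 5 members for the homozygous against the heterozygous deletion, beside 4056 of 13041 to 5180 of 13156 genes. For S34F it gave 0 to 1, beside 10 of 13873 to 51 of 14897 genes. Against the untreated wild type it gave 0 to 1 for 10000 ppm, beside 0 of 13789 to 825 of 13292 genes. For 1250 ppm it gave 0 to 1, beside 79 of 13789 to 1440 of 13258 genes. For 10000 against 1250 ppm it gave 1 to 2, beside 1121 of 13301 to 2808 of 13277 genes. For the dose trend it gave 0 to 1, beside 86 of 13060 to 2230 of 13156 genes. Between the control groups it gave 4 to 5, beside 5868 of 12503 to 7839 of 12894 genes. The heterozygous deletion and 2500 ppm kept 0 members, beside at most 265 of 13102 and 160 of 13303 genes. The S34F comparison could not be fitted without its batch B control. No called member's log2 fold change changed sign under the settings run. Other than as given, the cause of these changes was not tested.

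The labels do not say what the replicate numbers mean. The same-numbered libraries deviated together in some pairs of groups and not in others (r from -0.37 to 0.69), so the fits above did not pair them. For 2500 ppm against the untreated wild type no member was called with or without the replicate block. With 2 to 6 libraries a group, and 1 batch-matched control for S34F, small changes of single members could be missed.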
